A study of Homo sapiens with 17 samples.

Results

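Genes that carried the repressive histone mark H3K27me3 in neurons lacking UTX were set against the RNA of the same knockout (KO) neurons, library by library, to find which of them were expressed despite the mark. A gene was taken as marked when a KO H3K27me3 peak lay within 2 kb of either of its ends (GRCh38), and as expressed when it reached 1 CPM (counts scaled to a library size of 1e+06 after TMM correction) in all 5 KO libraries. Of 37489 genes with a position, out of 60199 in the RNA table, 3870 (10.3%) were marked. Among them 1733 (44.8%) were expressed in all 5 KO libraries, 822 (21.2%) reached 1 CPM in 1 to 4 of them and are called variable here, and 1315 (34%) stayed under 1 CPM in all 5 and are called silent. Both the peaks and the KO CPM values chose these classes, so their levels and counts are descriptions, with no test.

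H3K27me3 is written by Polycomb repressive complex 2 (PRC2) and is read by complexes of the PRC1 family, and in development it covers the promoters of regulators of other lineages. UTX (gene symbol KDM6A) removes this methylation and is also a subunit of a COMPASS-type complex that methylates histone H3 at lysine 4. H3K36me3 is laid down behind elongating RNA polymerase II and marks the bodies of transcribed genes. A promoter that carries H3K27me3 together with an activating mark is called bivalent, and the study's title names the resolution of such promoters. No activating promoter mark was among the lists analysed here.

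The neurons, collected at day 40, derived from H9, an established line of human embryonic stem cells, either wild type (WT) or as the UTX-/- lines KO1 and KO2. All groups had the same course of embryoid bodies, neural rosettes and neurospheres with retinoic acid and FGF2, followed by medium with BDNF, GDNF, dibutyryl cyclic AMP and ascorbic acid. RNA came from 3 WT, 3 KO1 and 2 KO2 libraries of 17.4 to 31.5 M estimated counts. Since the labels do not tell whether replicates came from separate differentiations, a p-value here covers just the spread among these libraries. The labels also do not describe the UTX allele or say whether each line is 1 clone. ChIP had 1 biological replicate per line, and each mark has 1 KO peak list, named by both KO lines, whose header lists 1 treatment and 1 control alignment. Nothing in the labels or headers tells whether that alignment pools KO1 and KO2, so no peak result has a replicate check and the peaks and the RNA of a line cannot be matched. The KO H3K27me3 list held 10950 peaks with a median length of 614 bp from 37.7 M tags, and 5034 of them lay within 2 kb of a gene end.

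KDM6A RNA was at 40.8, 30.1 and 34.1 CPM in KO1 and at 25.9 and 33.9 CPM in KO2, against 36, 35.9 and 35.2 CPM in WT. A gene-level count cannot check an allele that the labels leave undescribed, so KO means the label throughout. All 20 pan-neuronal markers reached 1 CPM in every KO library. Before any result, 3 KO libraries have to be set apart. In KO1 replicate 2 and both KO2 libraries the summed level of 20 mesenchymal markers was 92887, 38177 and 54419 CPM, against 4947 and 4112 CPM in the other KO libraries and 2408 to 4815 CPM in WT. The summed level of the pan-neuronal markers was 1622, 4815 and 2991 CPM in those 3 libraries and 6887 and 8020 CPM in KO1 replicates 1 and 3. Epithelial markers summed to 561, 190 and 45.7 CPM in KO1, 737 and 783 CPM in KO2 and 21.8 to 90.3 CPM in WT. Their sum thus differed between KO1 replicates 1 and 3 as well. In all 5 KO libraries 7 of 12 reached 1 CPM, while CLDN7, ESRP1, GRHL2 and KRT5 were under 1 CPM in all 5. Of 10 pluripotency markers 3 reached 1 CPM in all 5, while POU5F1 and NANOG were under it in all 5. The part of such cells in the results was not tested. Of the mesenchymal markers, 18 of 20 reached 1 CPM in all 5 KO libraries and none was at 0 in every library. In bulk RNA, fewer cells of a type and less RNA per cell cannot be told apart, and a peak and a transcript of the same gene may come from different cells, which was not tested.

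The promoters below show the kinds of gene at issue, chosen after their values were seen. Each is the 250 bases before a listed start, read 5′ to 3′ on the gene's strand from RefSeq promoters of GRCh38.p14, in lower case with every CG dinucleotide in capitals. TMEM59L (chr19:18612620-18612869, + strand) was expressed although its only peak, 7951 bp long, covered the whole stretch. EBF3 (chr10:129964275-129964524, - strand), a transcription factor of developing neurons, was expressed with its start in a 210-bp gap between 2 peaks, the longer of 9817 bp. HOXC5 (chr12:54016638-54016887, + strand) and NOXO1 (chr16:1981470-1981719, - strand) were silent under their peaks, and GAPDH (chr12:6535014-6535263, + strand), a glycolytic enzyme, was expressed with no peak.
TMEM59L, expressed, start under a peak: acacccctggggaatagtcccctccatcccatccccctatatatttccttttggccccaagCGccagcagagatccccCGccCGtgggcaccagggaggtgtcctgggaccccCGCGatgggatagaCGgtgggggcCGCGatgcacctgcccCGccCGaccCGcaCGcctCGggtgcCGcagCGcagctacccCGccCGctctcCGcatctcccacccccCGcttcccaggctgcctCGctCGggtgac
EBF3, expressed, start in a gap: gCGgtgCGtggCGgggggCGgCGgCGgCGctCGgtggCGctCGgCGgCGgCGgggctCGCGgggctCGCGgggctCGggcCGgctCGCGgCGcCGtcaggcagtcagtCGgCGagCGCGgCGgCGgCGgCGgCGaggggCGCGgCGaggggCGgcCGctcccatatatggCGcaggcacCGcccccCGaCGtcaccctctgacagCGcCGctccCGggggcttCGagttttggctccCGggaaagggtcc
HOXC5, silent, start under a peak: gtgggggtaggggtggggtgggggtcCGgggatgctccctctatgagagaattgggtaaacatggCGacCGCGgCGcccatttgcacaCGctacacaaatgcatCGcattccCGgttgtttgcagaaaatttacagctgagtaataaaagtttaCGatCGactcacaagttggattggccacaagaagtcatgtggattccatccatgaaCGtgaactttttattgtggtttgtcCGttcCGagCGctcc
NOXO1, silent, start under a peak: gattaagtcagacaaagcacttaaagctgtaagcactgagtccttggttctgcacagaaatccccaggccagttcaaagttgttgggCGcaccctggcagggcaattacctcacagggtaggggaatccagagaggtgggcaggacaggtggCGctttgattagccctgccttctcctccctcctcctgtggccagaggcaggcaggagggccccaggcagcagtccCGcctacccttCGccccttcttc
GAPDH, expressed, no peak: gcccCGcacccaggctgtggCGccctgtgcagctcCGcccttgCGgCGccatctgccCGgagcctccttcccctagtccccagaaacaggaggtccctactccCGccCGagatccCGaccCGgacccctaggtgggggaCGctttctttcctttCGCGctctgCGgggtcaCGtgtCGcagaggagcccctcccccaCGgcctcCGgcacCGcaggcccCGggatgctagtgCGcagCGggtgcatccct
These stretches held 21, 46, 14, 4 and 22 CG dinucleotides in that order.

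Over all 35116 promoters of the table (250 bases before to 50 after a start), the median was 14 CG dinucleotides. Promoters overlapped by a KO H3K27me3 peak had medians of 28 in expressed genes (819 promoters of 645 genes), 26 in variable genes and 22 in silent genes. Where no peak lay near, the medians were 25 in expressed, 8 in variable and 4 in silent genes. Marked promoters were thus rich in CG in every expression class, while unmarked promoters were so mainly in expressed genes. The motif GGGCGG, searched on both strands and itself holding a CG, was in 73.7% of marked expressed, 71.7% of marked variable and 62.9% of marked silent promoters, against 45% of all promoters and 65.2%, 38.1% and 20.6% of the unmarked classes in the same order. TATAAA, on both strands, was in 5.74%, 10.9% and 9.14% of these, against 11.5% of all and 6.23%, 14.2% and 19.4% of the unmarked classes. In expressed genes the marked and unmarked promoters were thus close in both motifs. A match of letters describes the sequence only.

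Expression of marked genes was not rare. The share of 44.8% stands beside 36.1% of all genes with a position and 35.1% of the genes without a KO peak that were expressed in all 5 KO libraries. Those shares are shaped by gene type, since 80.5% of marked genes were protein-coding. Among protein-coding genes the order was reversed: 1681 of 3115 marked genes (54%) were expressed, against 66.5% of all protein-coding genes and 68.9% of the unmarked ones. Counted per library, 2187, 2153 and 2002 marked genes reached 1 CPM in KO1 and 2284 and 2214 in KO2. Without KO1 replicate 2 and both KO2 libraries, 1956 marked genes reached 1 CPM in both remaining libraries.

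The levels of marked genes differed between those with and those without an H3K36me3 peak. Genes with H3K27me3 alone had medians of 1.47, 1.46 and 0.999 CPM in KO1 and 2.06 and 1.73 CPM in KO2. The 171 genes with both marks had medians of 67.0, 64.5 and 67.8 CPM in KO1 and 69.2 and 65.3 CPM in KO2, close to the 67.3 to 71.9 CPM of genes with H3K36me3 alone. Among protein-coding genes the KO medians were 2.23 to 4.21 CPM with H3K27me3 alone and 66.6 to 72.4 CPM with both marks. Protein-coding genes with neither mark had KO medians of 8.19 to 9.63 CPM. CPM is not scaled by transcript length, so these medians compare groups of genes only roughly. Of the genes with both marks, 162 were expressed, 3 variable and 6 silent. Marked expressed genes had lower medians (13.6 to 20.0 CPM over the 5 libraries) than unmarked expressed genes (34.7 to 35.5 CPM).

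**Figure D1:**
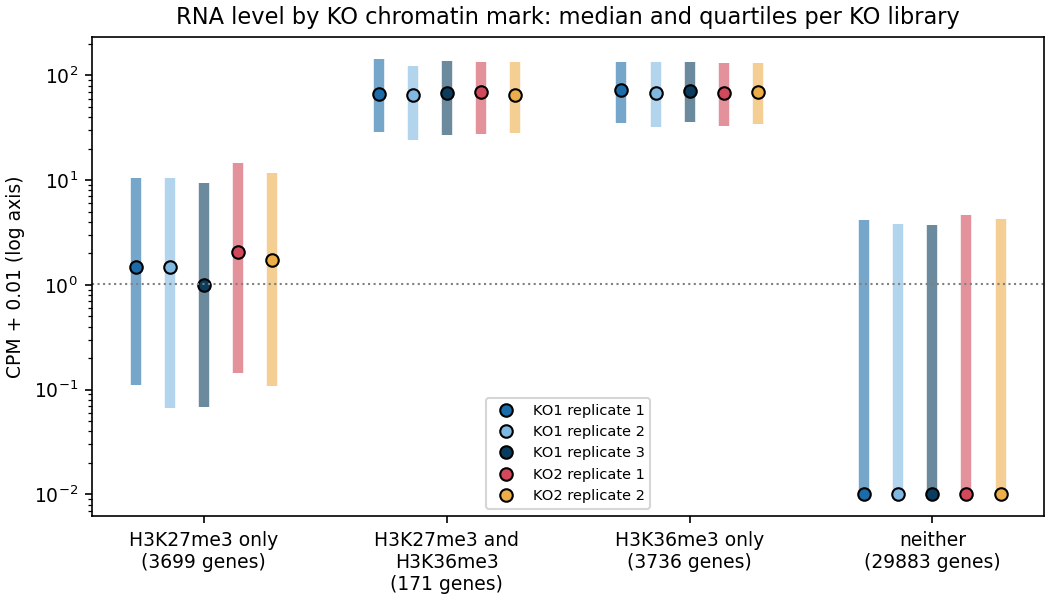
Median (circle) and quartiles (bar) of CPM + 0.01 on a log axis, by KO library, for genes grouped by their KO peaks. The dotted line is 1 CPM. Genes with both marks lie as high as genes with H3K36me3 alone, and genes with H3K27me3 alone sit around the line in all 5 libraries.

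An H3K36me3 peak over the gene span was found in 162 of 1733 expressed marked genes (9.35%) and in 3566 of 11811 expressed unmarked genes (30.2%). The difference was present at each level. Among genes with a mean over 100 CPM the shares were 31.6% and 63%, from 10 to 100 CPM 9.29% and 27.2%, and under 10 CPM 1.95% and 6.01%. The KO H3K36me3 list was thin, with 8937 peaks of a median 254 bp and a median −log10 q of 4.27, and none of the 162 remained at a −log10 q of at least 10. With the 30144 peaks of the WT H3K36me3 list the same shares were 27.3% and 53.5%.

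Expressed and silent marked genes differed in where the peak lay. Among genes with 1 listed start that had a peak within 2 kb, the start base itself was under a KO peak in 296 of 669 expressed genes (44.2%), in 330 of 435 variable genes (75.9%) and in 379 of 533 silent genes (71.1%). The start sat in a gap with peaks on both sides in 108 expressed genes (16.1%), 29 variable genes (6.67%) and 27 silent genes (5.07%). Only a start that is not under a peak can sit in a gap, so these shares partly restate the ones before. A peak downstream alone was found in 159 expressed genes (23.8%) and on the upstream side alone in 106 (15.8%). Downstream was also the more frequent side in variable genes (11.3% against 6.21%) and silent genes (13.9% against 9.94%). The WT peak list, which the choice of genes did not use, put the start of 47.7% of the same expressed genes, 72.9% of the variable and 70.5% of the silent genes under a peak. Of the 108 expressed genes with a gap at the start in KO, 31 had one in WT and 36 had the start under a WT peak.

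The gaps had a median of 801 bp in expressed genes, 628 bp in silent and 548 bp in variable genes. In the 210-bp gap at EBF3 the start lay 62 bp from the nearer peak. SOX1, a factor of neural progenitors, had its start in a gap of 1198 bp, 549 bp from its longest peak, and was at 152, 7.01, 94.4, 27.3 and 50.5 CPM over KO1 and then KO2. Some starts were in a gap by a few bases: that of PRRX1, a homeobox gene of mesenchyme, lay 2 bp from a peak, and that of NEUROG2, a proneural factor, 3 bp. Peaks were narrow calls from 1 alignment, and a gap can also be a place where the caller split 1 region, which was not tested.

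Counting every listed start, 1296 expressed marked genes had at least 1. All starts were marked within 2 kb in 863 (66.6%), some but not all in 218 (16.8%), and in 215 (16.6%) the peak lay at the far end alone. The matching shares were 87%, 6.59% and 6.42% in variable genes and 82.4%, 2.93% and 14.6% in silent genes. A peak over every listed promoter was seen in 34.3% of expressed, 68.9% of variable and 63.2% of silent genes. In the 218 genes with some starts marked, the marked starts held a median of 28 CG dinucleotides and the unmarked starts 7. Of the genes with a far-end peak alone, 148 (68.8%) shared that peak with another gene, and 81 (37.7%) shared it with a gene not expressed in all 5 KO libraries. Sharing was also common among far-end silent genes (57.3%, and 37.3% with a gene not expressed in all 5) and far-end variable genes (55.3% and 26.3%). Among genes with all starts marked, 26.9% shared the peak.

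Several of the most abundant marked genes were of this far-end kind. LRP1, an endocytic receptor of the LDL receptor family, was at 437, 2642 and 432 CPM in KO1 and 1293 and 1755 CPM in KO2, with KO1 replicate 2 and both KO2 libraries above the others. Its 12823-bp peak lay 86024 bp from its start and was shared with NXPH4. PKM, pyruvate kinase, was at 956, 358, 759, 838 and 671 CPM over KO1 and then KO2, with a 2835-bp peak shared with the variable gene GRAMD2A. SREBF2, a regulator of cholesterol synthesis, was at 477, 406, 467, 347 and 426 CPM, and its 7741-bp peak was shared with the silent gene SHISA8.

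SCAPER, ELP5 and METAP1D followed the same layout beside marked neighbours. SCAPER was at 24.4, 21.0, 24.9, 23.1 and 20.1 CPM in the 5 KO libraries, and its far end touched a 14563-bp peak that also covered ISL2, a motor neuron factor at no more than 0.505 CPM. ELP5, a subunit of the Elongator complex, was at 37.1, 31.5, 41.3, 25.4 and 32.9 CPM and shared a 4684-bp peak with CLDN7, an epithelial claudin at no more than 0.224 CPM. METAP1D, a mitochondrial aminopeptidase, was at 10.1, 12.1, 9.22, 8.51 and 11.7 CPM and touched the 24494-bp peak of DLX1 and DLX2. In these genes the assignment to a peak came from the neighbour's region, and the start lay 556141 bp from the peak in SCAPER, 6769 bp in ELP5 and 75932 bp in METAP1D.

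Other abundant genes had the peak at a start. EEF1A1, a translation elongation factor, had the highest level in its lowest library, at 7916, 17993, 7143, 9722 and 13685 CPM, and its 1469-bp peak had the highest fold over control of the KO list (26.8, the authors' value). COL1A1, a fibrillar collagen and one of the mesenchymal markers, exceeded it in KO1 replicate 2 (27544 CPM) and KO2 replicate 2 (14456 CPM). EEF1A1 and PGK1 have near-identical copies in the genome, so reads from either assay may be split or misplaced there. GNAS, which encodes the stimulatory G-protein subunit and has imprinted promoters, was at 1120, 1334, 1120, 1234 and 1152 CPM with 4 of 6 listed starts marked. CRMP1, a neuronal protein of growth cone signalling, was at 568, 226, 717, 317 and 351 CPM with 2 of 4 starts marked. SEPTIN9, a cytoskeletal GTPase, was at 283, 316, 264, 239 and 298 CPM with 1 of 10 starts marked. In GNAS, CRMP1 and SEPTIN9 the RNA value sums over all starts, so it does not tell a marked from an unmarked promoter.

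Some genes had a peak of 5 kb or more over their 1 listed promoter and were still expressed; the 4 given here were picked after their values were seen. TMEM59L, a membrane protein of neurons, was at 55.2, 64.1, 50.8, 42.8 and 50.8 CPM under its 7951-bp peak. GNAO1, the G-protein subunit most abundant in brain, was at 133, 25.4, 177, 73.9 and 75.9 CPM with a 5748-bp peak over its start. NFIC, a nuclear factor I transcription factor, was at 27.6, 91.1, 17.2, 69.2 and 63.4 CPM under a 6597-bp peak and carried an H3K36me3 peak as well. CYP26B1, an enzyme that clears retinoic acid, was at 33.0, 42.7, 14.3, 31.3 and 34.9 CPM under an 8450-bp peak. All 4 stayed above 14 CPM in every KO library, and in the 3 libraries with the high mesenchymal level GNAO1 was lower and NFIC higher than in the other 2.

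**Figure D2:**
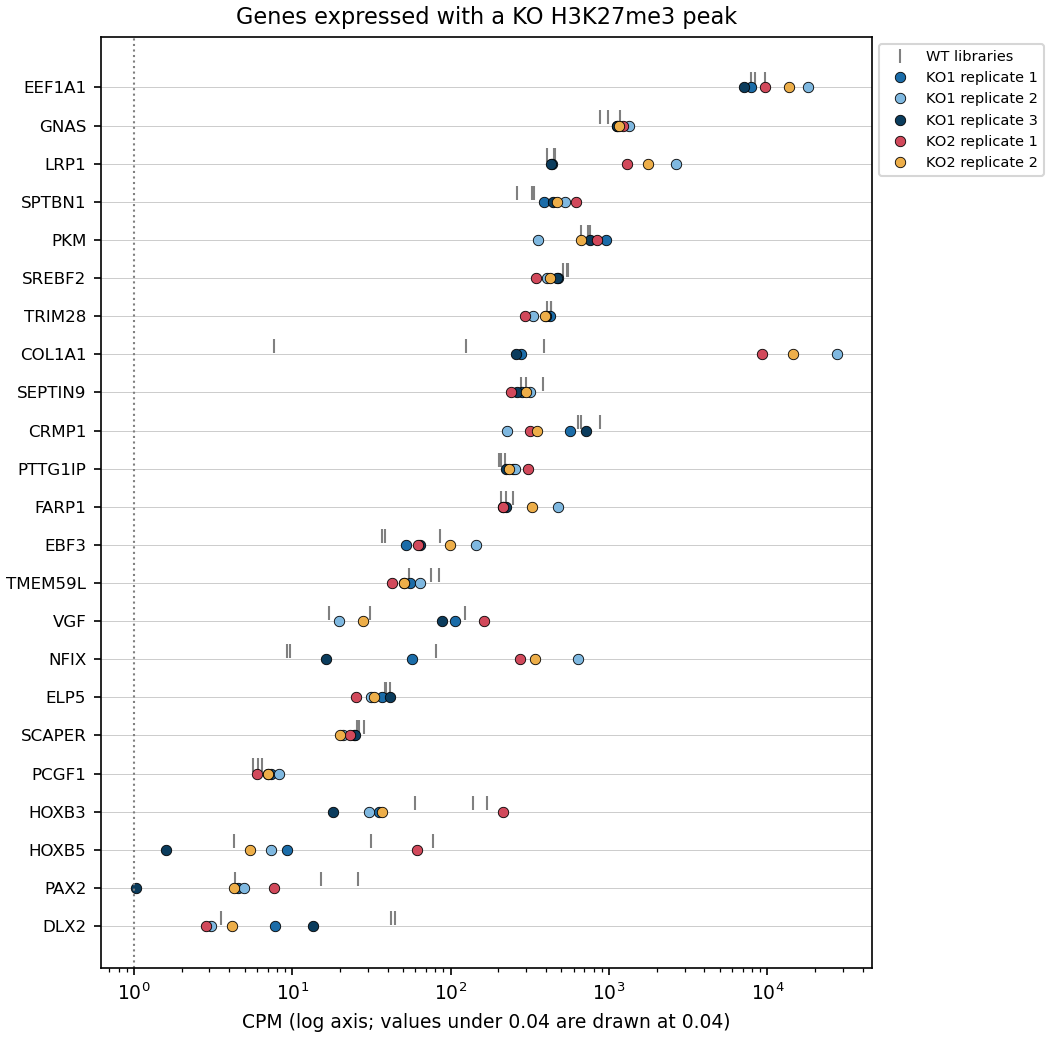
CPM on a log axis of 23 marked genes expressed in all 5 KO libraries (circles, coloured by library; grey ticks, the 3 WT libraries; dotted line, 1 CPM). GNAS and SCAPER are narrow, while COL1A1, NFIX and HOXB5 spread over an order of magnitude or more.

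The expressed share was lowest among genes with the longest peaks, but it did not fall steadily with length. Expressed marked genes had a median longest peak of 1696 bp, variable genes 2791 bp and silent genes 2204 bp, and peaks of 5 kb or more were found in 11.2%, 25.7% and 22% of them. Of 331 genes with a peak over 10 kb, 18.7% were expressed, 33.5% variable and 47.7% silent. At 500 to 1000 bp 54.6% of 579 genes were expressed, and under 500 bp 47.7% of 532, with 39.7% silent. Across all 3870 marked genes, Spearman's rho between peak length and CPM lay between -0.132 and -0.107 in the 5 libraries, a weak relation across genes that share 1 ChIP list and are not independent.

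**Figure D3:**
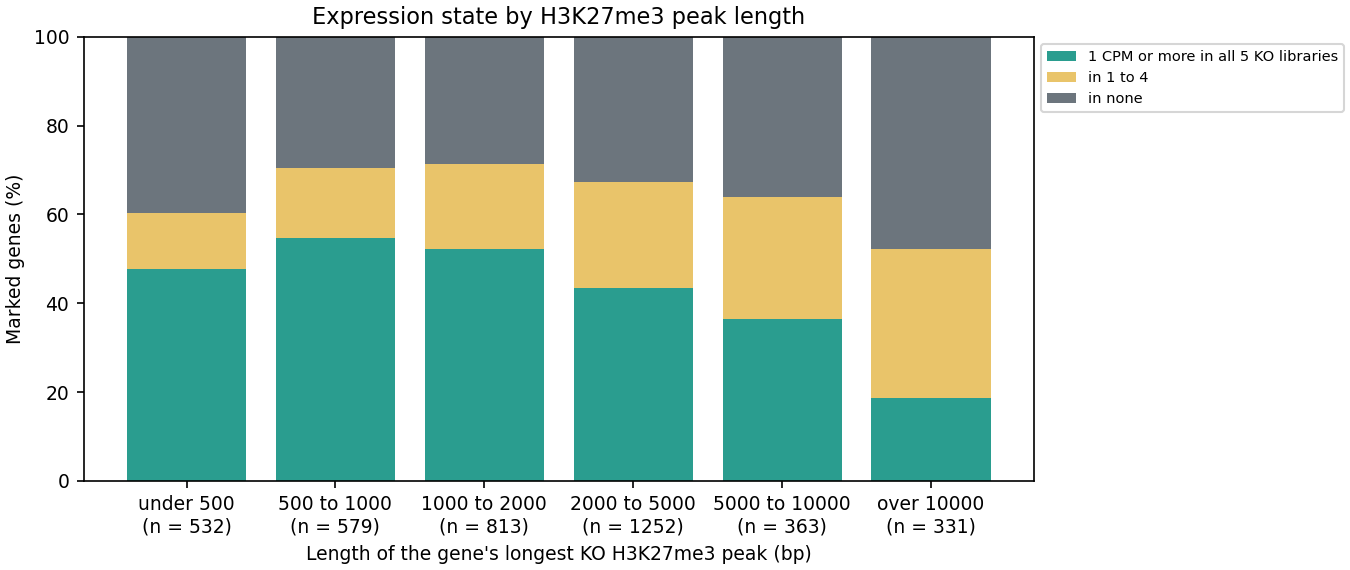
Share of marked genes that reached 1 CPM in all 5, in 1 to 4 or in none of the KO libraries, by the length of the gene's longest KO H3K27me3 peak. The expressed share is 47.7% under 500 bp, 54.6% at 500 to 1000 bp and 18.7% over 10 kb.

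The expressed genes with the longest peaks were HOXB3, HOXB5, PAX2 and, sharing 1 peak, DLX1, DLX2 and METAP1D. HOXB3 was at 35.1, 30.4 and 18.1 CPM in KO1 and 215.5 and 36.7 CPM in KO2, beside a 46039-bp peak shared with HOXB5 to HOXB9. HOXB5 was at 9.30, 7.30, 1.59, 61.1 and 5.40 CPM, with the same KO2 replicate 1 far above the rest. PAX2, a factor of the midbrain-hindbrain boundary, was at 4.55, 4.99, 1.03, 7.70 and 4.26 CPM under a 29065-bp peak. DLX2, a factor of forebrain interneurons, was at 7.78, 3.09, 13.6, 2.87 and 4.16 CPM.

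The gene lists of neuronal function were mostly expressed where marked, as the plot of gene lists shows. These lists were chosen with earlier results of these data known, and their counts stand beside the 54% of marked protein-coding genes. All 9 marked pan-neuronal markers were expressed, as were all 18 marked guidance genes, 31 of 34 marked ion channels and 25 of 35 marked transmitter receptors. The unmarked members were expressed as widely, with 11 of 11, 30 of 30, 10 of 10 and 7 of 8 in the same order, so the counts do not set the marked members apart. STMN2, a microtubule regulator of axons, was at 385, 41.6 and 464 CPM in KO1 and 233 and 105 CPM in KO2 with a 4225-bp peak. MAPT, which encodes tau, was at 178, 32.7, 214, 189 and 56.7 CPM with a 4983-bp peak. DCC, a netrin receptor, was at 334, 39.3, 345, 144 and 101 CPM. All 3 were lowest in KO1 replicate 2, the library with the lowest summed pan-neuronal level.

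GRIA2, an AMPA receptor subunit, was at 59.5, 11.1, 134, 31.2 and 28.0 CPM over KO1 and then KO2. The vesicular glutamate transporter SLC17A6 was at 29.0, 2.69, 47.1, 22.6 and 10.0 CPM. GRIN2D, an NMDA receptor subunit, was narrower at 10.6, 17.8, 12.9, 14.4 and 11.6 CPM. Of 19 marked genes of transmitter identity, 10 were expressed, including GAD1 and GAD2, which make GABA, and 5 were silent, among them the serotonin transporter SLC6A4 and the dopamine transporter SLC6A3.

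Regulators of neural regions and of other lineages divided differently. Of 24 forebrain factors 22 were marked, and 8 of them were expressed, 12 variable and 2 silent. All 30 factors of midbrain, hindbrain and spinal cord were marked, with 8 expressed, 19 variable and 3 silent. All 39 HOX genes were marked, with 4 expressed (HOXB2, HOXB3, HOXB4 and HOXB5), 11 variable and 24 silent. Of 52 regulators of non-neural lineages 46 were marked, with 10 expressed, 20 variable and 16 silent. The midbrain-to-spinal factor LHX4, a LIM-homeobox gene, was even at 12.1, 10.4, 11.4, 11.5 and 10.7 CPM under an 11581-bp peak.

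The counts for these regulators depended on the libraries. In KO1 replicates 1 and 3 alone, 19 of the 22 marked forebrain factors reached 1 CPM in both, and 8 did so in all 3 of KO1 replicate 2 and the KO2 libraries, a count that asks for 1 library more. For the 46 marked non-neural regulators the counts were 11 and 25, for the 30 midbrain-to-spinal factors 10 and 17, and for the 39 HOX genes 4 and 7. Over all 3870 marked genes they were 1956 and 1972. TBR1, a factor of cortical projection neurons, was at 187, 16.5 and 344 CPM in KO1 and 0.224 and 71.6 CPM in KO2, under a 14389-bp peak. TWIST1, a regulator of mesenchyme, was at 0.303, 127, 0.617, 23.7 and 83.1 CPM. TWIST1 was higher, and TBR1 lower, in the 3 libraries with the high summed mesenchymal level than in the other 2. The part of cell makeup in this was not tested.

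**Figure D4:**
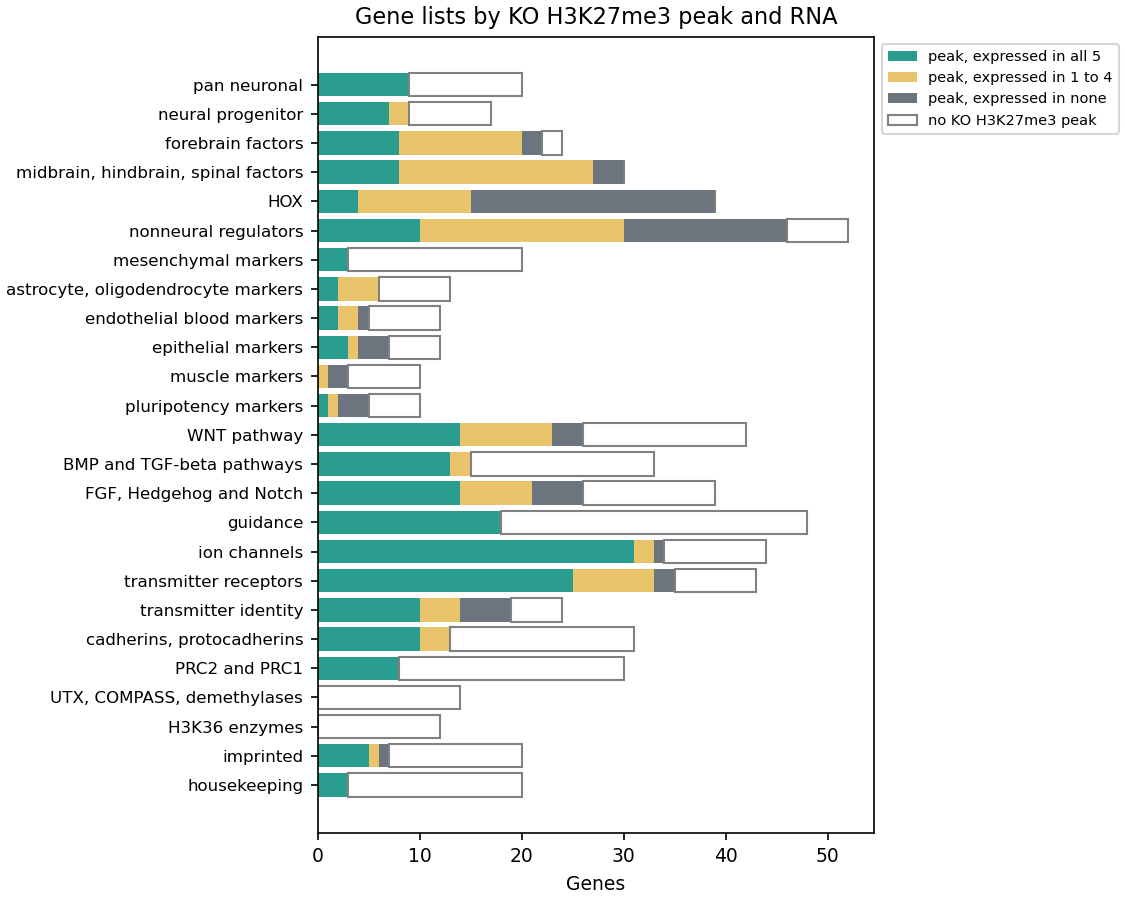
Number of genes in each list by KO H3K27me3 peak and RNA: peak and 1 CPM in all 5 KO libraries (green), in 1 to 4 (yellow), in none (grey), or no peak (white). Guidance genes and ion channels are nearly all green where marked, and HOX genes are mostly grey.

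Counts of marked signalling genes stand beside the 54% of marked protein-coding genes that were expressed. The unmarked members of the WNT list were expressed in 15 of 16 genes. Those of the BMP and TGF-beta list were in 16 of 18, and those of the FGF, Hedgehog and Notch list in 11 of 13. Of 42 WNT pathway genes 26 were marked, with 14 expressed, 9 variable and 3 silent. WNT7B, a ligand of the developing cortex, was at 181, 6.68, 269, 2.19 and 82.8 CPM, and RSPO2, a secreted WNT enhancer, at 41.8, 64.7, 133, 28.1 and 70.9 CPM. In the BMP and TGF-beta list 13 of 15 marked genes were expressed, and in the FGF, Hedgehog and Notch list 14 of 26, with the ligands SHH, IHH and DHH all silent and their receptor PTCH1 at 22.3 to 61.3 CPM. FGF9, a ligand made by neurons, was even at 12.7, 12.3, 14.3, 11.9 and 12.5 CPM.

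Some Polycomb genes themselves carried the mark. Of 30 PRC2 and PRC1 genes 8 were marked, beside 16.2% of all protein-coding genes, and all 30 were expressed, marked or not. The marked ones included EPOP, CBX2, CBX7, CBX8, PHC2, BMI1 and PCGF1. CBX8, a chromodomain subunit that reads H3K27me3, was at 22.2, 30.0 and 28.2 CPM in KO1 and 17.4 and 25.1 CPM in KO2, beside a 12078-bp peak. BMI1, a PRC1 subunit, was at 72.4, 55.1, 72.2, 48.6 and 56.3 CPM. PCGF1 was at 7.38, 8.31, 7.08, 6 and 7.04 CPM, 1719 bp from an 11738-bp peak that also covered the silent gene TLX2. None of the 14 genes of the UTX, COMPASS and demethylase list and none of the 12 H3K36 enzymes had a KO H3K27me3 peak.

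Expressed marked genes differed widely between KO libraries. The highest library exceeded the lowest by a median 3.54-fold in expressed marked genes and 1.61-fold in expressed unmarked genes. More than 4-fold was seen in 791 marked genes (45.6%) and in 9.83% of unmarked ones, and over 10-fold in 17.3% and 2.48%. In each band of mean level the marked genes had the higher median, 3.26 against 2 under 10 CPM and 5.27 against 1.59 over 100 CPM. Of the 791 genes, 319 had KO1 replicate 2 and both KO2 libraries above the other 2, and 218 had them below. That split was not counted among unmarked genes, so it does not set the marked ones apart. A ratio between 2 libraries is smaller by construction than one over 5. Between KO1 replicates 1 and 3 the medians were 1.27 for the marked and 1.12 for the unmarked genes, with 1.67% and 0.271% over 4-fold, and between KO1 replicates 1 and 2 they were 2.23 and 1.36, with 30.9% and 6.01% over 4-fold. Over the 3 WT libraries, which the choice of genes did not use, the medians were 1.64 for 1628 marked and 1.25 for 11618 unmarked genes at 1 CPM or more in all 3, and 7.68% and 0.8% exceeded 4-fold.

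Variable marked genes are defined by the 1 CPM line alone, and the median of their median KO levels was 1.21 CPM. A small change in level can thus move such a gene from 1 pattern of libraries to another. The most frequent pattern, in 115 of 822 genes (14%), was 1 CPM or more in KO1 replicate 2 and both KO2 libraries and in no other, against 9.05% of 1370 variable genes without a peak. Another 102 (12.4%, against 9.49%) missed the threshold in KO1 replicate 3 alone. The patterns next in number were more common among unmarked genes: 83 (10.1%, against 13.2%) reached it in KO2 replicate 1 alone, and 77 (9.37%, against 11.4%) missed it in KO1 replicate 2 alone. The pattern after these, in 53 genes, was again more common among marked ones (6.45%, against 4.16%). These genes reached 1 CPM in KO1 replicate 2 and KO2 replicate 2 alone. These differences were not tested. By the ratio of highest to lowest library (the lowest set to at least 3 counts), the leading genes included TBR1, DMRTA2, SP8 and FEZF2, forebrain factors that were at most 0.224 CPM in KO2 replicate 1. HOXA3, a hindbrain HOX gene under a 57829-bp peak, was at 3.34, 5.05, 0.0587, 79.7 and 1.73 CPM. FOXL2NB, which neighbours FOXL2, was at 0.101, 44.1, 0.0587, 0.672 and 61.8 CPM.

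**Figure D5:**
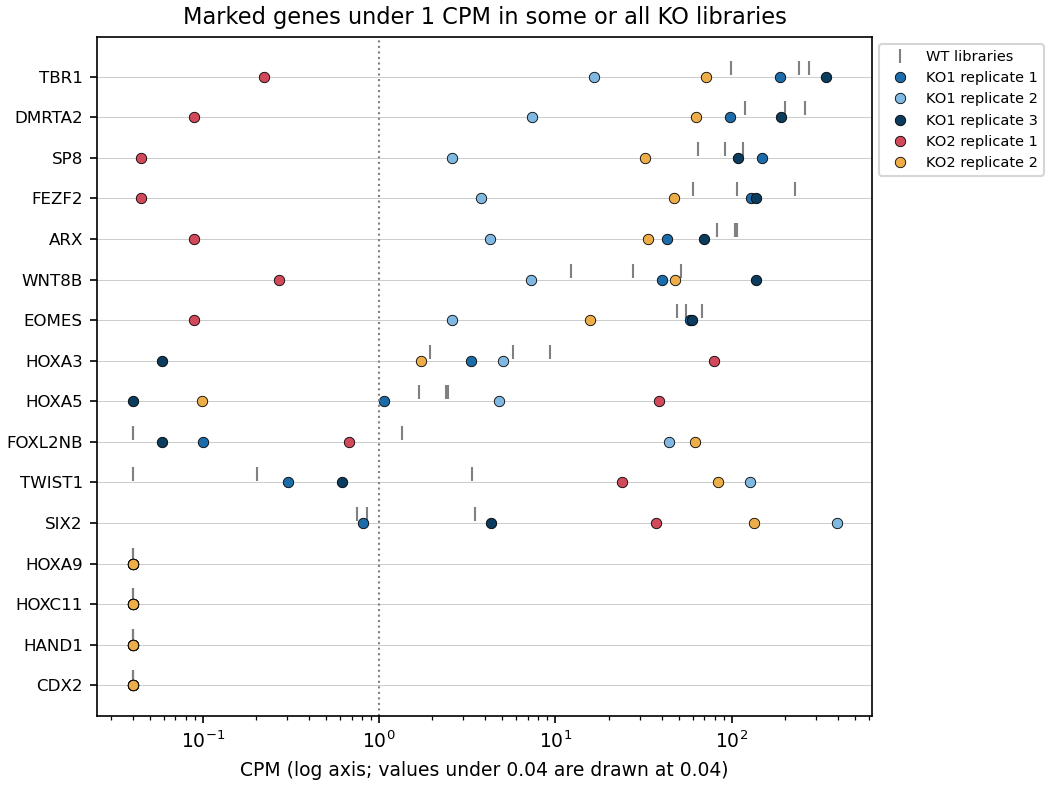
CPM on a log axis of 12 variable and 4 silent marked genes in the KO libraries (circles) and WT libraries (grey ticks), with values under 0.04 drawn at 0.04 and 1 CPM as a dotted line. The first 7 genes are lowest in KO2 replicate 1, HOXA3 and HOXA5 are highest there, and TWIST1 and SIX2 are highest in KO1 replicate 2.

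Silent genes were led by HOX clusters. The longest KO peak, 60299 bp, covered the HOXC cluster, where HOXC10 was at no more than 0.147 CPM and HOXC11 at 0 in all 8 libraries. A count of 0 allows up to 0.0881 to 0.168 CPM in a KO library, taken as 3 counts, for counting error only. HOXA9, HAND1 and CDX2, regulators of posterior, heart and gut development, were also at 0 in every KO library. HOXC4, HOXC5 and HOXC6 overlap, so their counts may be split. Among silent genes with both marks, NOXO1, an NADPH oxidase organiser, came closest to expression at 0.303, 0.898, 0.676, 0.538 and 0.644 CPM.

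At the threshold itself, RASD2, CFAP77 and SLC12A8 were just inside, each at 1.01 CPM in its lowest library, and ITGB3, ISM1 and RAB6C-AS1 were just outside, each at 0.999 CPM.

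Most expressed marked genes had the same state in WT neurons. A WT H3K27me3 peak lay within 2 kb of an end in 1409 of 1733 expressed (81.3%), 751 of 822 variable (91.4%) and 1113 of 1315 silent genes (84.6%), against 84.6% of all marked genes. Of the expressed ones, 1628 (93.9%) reached 1 CPM in all 3 WT libraries, against 98.4% of expressed unmarked genes. Of the silent ones, 1260 reached it in no WT library. In 7 expressed marked genes (0.404%) no WT library reached 1 CPM: ADM, CD302, GADD45B, KRT19, PAQR5, SGMS2 and UAP1L1. The same held for 15 of 11811 expressed unmarked genes (0.127%). Both classes required 1 CPM in all 5 KO libraries, so a lower WT level in such genes is partly built in. All 7 marked genes had a WT H3K27me3 peak as well. GADD45B, a stress-response gene, was at 7.48, 31.7, 1.56, 31.1 and 24.6 CPM in KO and at 0.567, 0.0686 and 0.590 CPM in WT. KRT19, a keratin of simple epithelia, was at 5.05, 16.4, 1.59, 13.6 and 17.8 CPM in KO and at most 0.965 CPM in WT. Both were highest in the libraries with the high mesenchymal level.

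For KO against WT, edgeR's quasi-likelihood test called no gene at an FDR of 0.05 among 18614 tested (0%), and none of the 1733 expressed marked genes (446 had an unadjusted p under 0.05, as had 3337 of all). The marked genes with the lowest p included BDNF, EBF4, ASIC1 and CDKN2B. BDNF, a neurotrophin whose protein was also in the medium, had 13.1, 16.3, 7.34, 19.7 and 15 CPM in KO against 1.42, 3.19 and 2.36 CPM in WT (log2 difference 2.62, SE 0.40, edgeR FDR 0.243). EBF4, a relative of EBF3, was lower in all 5 KO libraries (24.5 to 43.7 CPM) than in WT (64.2 to 81.0 CPM), and ASIC1, an acid-sensing channel, likewise (24 to 36.5 against 53.1 to 62.9 CPM). CDKN2B, a cell-cycle inhibitor and a textbook Polycomb target, was at 22.3, 17.3, 5.93, 71.1 and 39.3 CPM in KO against 1.26, 0.823 and 1.23 CPM in WT (log2 difference 4.82, SE 0.86, edgeR FDR 0.243). These 4 genes were named for their low p, so the separation of their KO and WT libraries comes with that choice. None of the 4 passed the edgeR threshold.

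DESeq2 on the same counts called 1243 of 20745 genes (5.99%; 4.83% higher and 1.16% lower in KO) and 246 of 1723 expressed marked genes (14.3%; 201 higher and 45 lower). A gene had to reach 1 CPM in all KO libraries to be counted as expressed. The surplus of higher calls among these genes thus cannot be read as a direction of theirs. That minimum was not asked of all genes tested, here or in the other comparisons. The shares of calls thus compare unlike sets, and calls among expressed unmarked genes alone were not counted. Without KO1 replicate 2 and both KO2 libraries, DESeq2 called 262 of 18360 genes (1.43%; 0.877% higher and 0.55% lower) and 83 of the marked genes (4.79%; 43 higher and 40 lower). That comparison also had 2 KO libraries in place of 5, so the loss of samples and the mesenchymal level of the omitted libraries cannot be told apart.

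KO2 against KO1 gave no edgeR call among 18614 genes (0%) and none among the marked genes (59 with an unadjusted p under 0.05, as had 390 of all), while DESeq2 called 9 of 22426 (0.0401%; 0.0178% higher and 0.0223% lower in KO2) and none of the marked genes. The lowest edgeR p among the latter was that of F2RL1, a protease-activated receptor, at 1.52, 1.8 and 2 CPM in KO1 and 4.48 and 5.60 CPM in KO2 (log2 difference 1.5, edgeR FDR 0.999). JUNB, an AP-1 subunit, was at 15.9, 12.9 and 6.61 CPM against 36.2 and 25 CPM, and CLDN5, an endothelial claudin, at 6.32, 1.96 and 2.35 CPM against 15.3 and 11.1 CPM. Without KO1 replicate 2, edgeR called 936 of 18497 genes (5.06%; 3.8% higher and 1.26% lower in KO2) and 180 of the marked genes (10.4%; 133 higher and 47 lower). That comparison sets the 2 KO2 libraries, both high in mesenchymal markers, against 2 that are low, so line and mesenchymal level cannot be told apart in it.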

How the data were processed

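RNA and peak lists of the KO lines were the main material, with WT as the comparison. Per the submitters' processing notes, the authors quantified RNA with Salmon 1.1.0 and used DESeq2 1.26.0, and aligned ChIP reads with Bowtie2 2.4.1, on GRCh38. The deposited RNA table holds each library's estimated count per gene symbol, with no normalization, rounded here to whole numbers. No source used here gives the annotation or how transcripts were summed to genes. MACS2 2.2.7.1 gave the narrow peaks (q of 0.01, 1 tag kept per position, 1 treatment and 1 control alignment), per the file headers. The deposited lists give pileup signal, fold over control and −log10 p- and q-values per peak, all the authors' own. The control is called input in titles and normal rabbit IgG in the antibody label. The authors' table of KO against WT was not used here.

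Symbols were matched to RefSeq (GRCh38.p14), 737 by synonym. Peak and window overlaps counted from 1 bp, H3K36me3 over the gene span. CPM used TMM scaling. Listed starts and strands came from a RefSeq promoter table that does not list every gene. A promoter counted as covered when a peak overlapped its 300 bases. Counts were tested with edgeR 4.0.16 (R 4.3.3; filterByExpr, TMM, quasi-likelihood F-test, Benjamini-Hochberg over all genes tested, FDR 0.05), with DESeq2 1.42.0 as an alternative, and tables were made with pandas 2.3.3 in Python 3.11.15.

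The members, gene lists and naming rule were chosen with earlier results of these data known. Genes were named as those with the highest lowest-library CPM, the longest peak or the highest fold, for each class and peak position, as members of lists, as the lowest p of each contrast, and as those nearest to 1 CPM. Some genes that the rule names are not reported here. Those called picked or chosen after their values were seen fall outside the rule, as do the genes named with gaps at their starts. edgeR was tested on simulated counts of the KO and WT libraries with 200 changed genes among 18166, and found 8.96% of the 2-fold, 58.2% of the 4-fold and 83.3% of the 8-fold changes, with 6 false calls. With the KO2 and KO1 libraries it found 4.48%, 26.9% and 65.2% among 18172 genes, with 3 false calls. For both contrasts the simulated spread was that within WT, KO1 and KO2, and each gene was drawn independently. The real KO against WT fit joins KO1 and KO2, and the real libraries differ in mesenchymal level across many genes. The shares found may thus be too high for the real counts. Library sizes after TMM correction, 17.8 to 34 M, put 3 counts at 0.0881 to 0.168 CPM.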

Additional observations from a re-analysis of the deposited data

Results flagged for a closer look

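Within the 5 KO libraries, 50 values were checked for a library far from the nearest of the others (Dixon's test at 95%), and 4 were found. Chance flags about 1 in 20 groups, but many of these genes were named for their KO levels and some share a peak, so the number found is not set against that rate. All 4 were a high value in KO2 replicate 1: HOXB3 at 215.5 CPM, HOXB5 at 61.1 CPM, HOXA3 at 79.7 CPM and BMP6, a bone morphogenetic protein, at 60.6 CPM. HOXB3 and HOXB5 lay at a 46039-bp peak and HOXA3 under a 57829-bp peak. In WT, HOXB5 ranged from 4.3 to 77.3 CPM and HOXB3 from 59.9 to 171 CPM. In KO2 replicate 1 the forebrain factor TBR1 was at 0.224 CPM.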

How the results depend on the processing

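Most alternatives kept the counts within 1.5 times of the values reported. Taking only 2 kb around a listed start left 2516 marked genes and 92 expressed ones with H3K36me3. A peak over the 300 bases of a listed promoter, tried after seeing the data, left 1765 marked and 738 expressed genes, of which 38 had H3K36me3, 610 a WT peak and 415 over 4-fold between KO libraries. With 5 kb windows 246 expressed genes had H3K36me3. Peaks of at least 1000 bp left 102 with H3K36me3 and 922 with a WT peak. At a −log10 q of at least 10 none of the expressed marked genes kept an H3K36me3 peak (0), and other genes were not counted. A minimum of 5 CPM left 998 expressed genes, 766 with a WT peak and 353 over 4-fold. Without KO1 replicate 2 and both KO2 libraries, 34 genes exceeded 4-fold between the 2 left, where fewer libraries lower the ratio by construction. Leaving out each KO library in turn gave 1741 to 1835 expressed genes, 162 to 163 with H3K36me3, 1416 to 1508 with a WT peak and 533 to 786 over 4-fold. For KO against WT, edgeR gave 0 calls with RLE scaling, without a filter, with the replicate block and without each library, and DESeq2 gave 1243 (246 among expressed marked genes), or 262 (83) without the 3 libraries. For KO2 against KO1, leaving out single libraries gave 0 to 936 edgeR calls (0 to 180 among marked genes), the highest without KO1 replicate 2, and DESeq2 gave 9. The replicate block gave 0 calls in both contrasts. Same-numbered libraries of different groups had correlations of deviations from -0.321 to 0.267, and differently numbered ones from -0.267 to 0.339. Deviations were taken from group means, so those of the 2 KO2 libraries mirror each other. The check thus cannot tell whether same-numbered libraries shared a differentiation or a batch. Where a call rested on the tool or on KO1 replicate 2, the cause was not tested. The ChIP lists have no replicate, and depth limits RNA values under about 0.168 CPM.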
